A study of Mus musculus with 9 samples.

Results

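RNA of livers that lacked Tsc1 in hepatocytes was compared between mice with a heterozygous and with an intact p53 gene. The comparison used 6 of the 9 libraries of the series, which their genotype labels place in the 2 groups. The 3 double-mutant livers came from p53+/-;Tsc1fl/fl;Alb-Cre mice and the 3 Tsc1-deleted livers from Tsc1fl/fl;Alb-Cre mice, all labelled as liver at 320 days of age. Both groups carry the floxed Tsc1 alleles and the Cre recombinase, so p53 heterozygosity is the labelled difference. Alb-Cre makes the recombinase from the promoter of albumin, a gene of hepatocytes, while a p53+/- mouse has 1 working p53 allele in every cell. The labels do not tell which other cells of the liver kept Tsc1. The labels do not tell strain, sex or whether a piece of liver held a tumour, nor whether each library is a different animal. The p values below therefore measure the spread between these libraries, which may be technical.

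The proteins of Tsc1 and Tsc2 form a complex that restrains mTORC1, the growth kinase that couples nutrients to protein and lipid synthesis and holds back autophagy. Livers without the complex keep mTORC1 active, which in mice leads to damage and tumours with age. The tumour suppressor p53 is a transcription factor that answers DNA damage and other stress by activating genes of cell cycle arrest, apoptosis and repair, among them Mdm2, whose product degrades p53. Adult hepatocytes are known for secreted plasma proteins, cytochrome P450 enzymes, cholesterol and bile acid synthesis and, in male mice, the major urinary proteins.

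Levels are FPKM, a read density that divides the fragments of a gene by its length and by the mapped reads of the library. Each library was rescaled so that its nuclear protein-coding genes add up to an equal total. Values are given for libraries 1, 2 and 3 of a group in that order, and every log2 change is double mutant minus Tsc1-deleted on the scale log2(FPKM + 1), which understates the change of low genes. Of 11590 genes with at least 1 FPKM in 3 or more of the 6 libraries, 2 (0.0173%) passed an adjusted p of 0.05 as higher in the double mutant and 1 (0.00863%) as lower (limma, Benjamini-Hochberg). At an unadjusted p under 0.05 stood 1227 higher (10.6%) and 270 lower genes (2.33%). The lowest double-mutant value lay over the highest Tsc1-deleted value for 1548 genes (13.4%), called above without overlap here, and the reverse, called below without overlap, held for 391 genes (3.37%). Of all genes 74.8% had a positive and 25.2% a negative log2 change, and the median was 0.28. That shift depends on the scaling. With median-ratio rescaling the median was -0.02, 48.1% of the changes were positive and 51.9% negative, and 980 genes (8.46%) lay above and 962 (8.3%) below without overlap. Counts of list genes above and below without overlap and list medians are therefore given with the main scaling and then, after "or", with median-ratio rescaling. The shares of all genes to set beside each of these counts are 13.4% and 3.37%, or 8.46% and 8.3%. Counts of positive and negative changes in a list are with the main scaling only, where 74.8% and 25.2% of all genes had them. Of the genes tested, 83 reached 1 FPKM in the double-mutant libraries only and 24 in the Tsc1-deleted libraries only.

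Library 3 of the Tsc1-deleted group stood apart from libraries 1 and 2 of that group. On the first principal component, which held 53.02% of the variance, it lay at -18.6 beside the double-mutant libraries at -43.8, -12.0 and -31.8, while Tsc1-deleted libraries 1 and 2 lay at 49.6 and 56.6. Nuclear protein-coding genes took 82.0% to 87.3% of the signal in the double mutant, 72.0% and 65.9% in Tsc1-deleted libraries 1 and 2, and 85.4% in library 3. Mitochondrial transcripts took 7.98% to 11.9% in the double mutant, 19.97% and 24.1% in Tsc1-deleted libraries 1 and 2, and 9.56% in library 3. Without Tsc1-deleted library 3, 1056 genes (9.11%) passed as higher and 115 (0.992%) as lower. For 971 of those 1056 genes the level of library 3 was nearer to the double-mutant mean than to the mean of Tsc1-deleted libraries 1 and 2, and for 82 of the 115 as well. With median-ratio rescaling, leaving out that library gave 19 higher and 15 lower genes. Many genes named here were picked for low p values or large changes in these same libraries, which favours passing. Of 91 of the genes named here 56 passed without that library, and 8 of those also did so with median-ratio rescaling. These were Slc39a5, Adnp, Hist2h2aa1, Casp9, Tbcel, Gm10319, Gm33543 and Gm20634. Of all list genes, Casp9, Slc39a5 and Hist2h2aa1 passed in that way. Calls without library 3 given below for other genes and lists thus ended with median-ratio rescaling. Of the 8 genes, Slc39a5, Adnp and Casp9 reached 1 FPKM in the double mutant only. Hist2h2aa1 and Gm20634 did so in Tsc1-deleted livers only. Such genes entered the test through the group where they were high and so had to differ. No value here checks the genotype label of library 3. In Slc39a5, Adnp and Hist2h2aa1 it was near libraries 1 and 2 of its group, but these genes passed with it in the group, which favours such genes. Estimated depth was about 14300000 to 18300000 reads per library, with overlapping ranges in the groups.

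**Figure D1:**
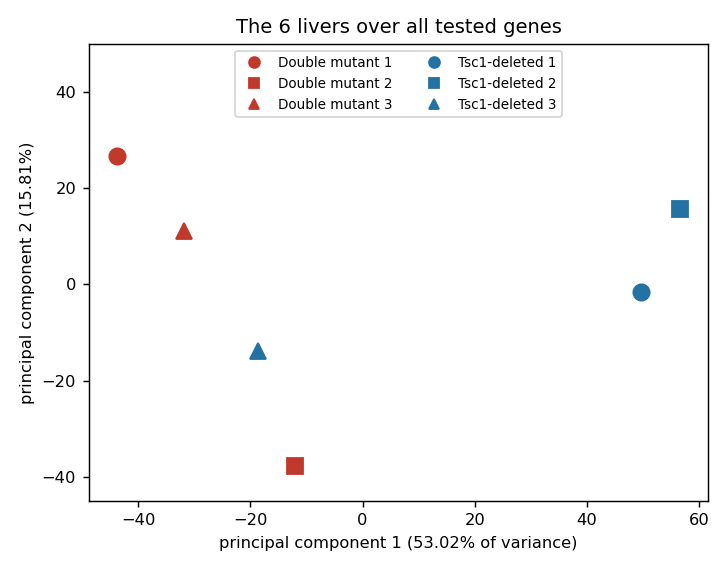
The 6 livers on the first and second principal component of log2(rescaled FPKM + 1) over all tested genes, with the share of variance on each axis (red, double mutant; blue, Tsc1-deleted; 1 point a library). Tsc1-deleted library 3 sits at -18.6 on the first axis, among the double-mutant libraries and away from libraries 1 and 2 of its own group at 49.6 and 56.6.

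The change also moved with transcript length. With the tested protein-coding genes split by length into 5 groups of equal size, the median log2 change was 0.05 for transcripts with a median of 1337 bases and 0.24, 0.30, 0.36 and 0.40 for medians of 2264, 3155, 4234 and 6323 bases. With median-ratio rescaling the same medians ran from -0.28 to 0.14. Tsc1-deleted libraries 1 and 2 were lower in longer transcripts, double-mutant library 2 was higher, and the others were flatter. Median lengths are given beside some lists only, and lists without one can also hold short or long transcripts. Against 3154.5 bases for all tested protein-coding genes, the median was 618 for histones, 927.5 for major urinary proteins and 1901 for fetal and tumour genes. It was 1179 for glutathione transferases, 1414.5 for macrophage markers, 1589 for albumin and other carriers, 4381 for bile acid transporters and 4912 for stellate cell and matrix genes. The part of length in the list results was not tested.

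**Figure D2:**
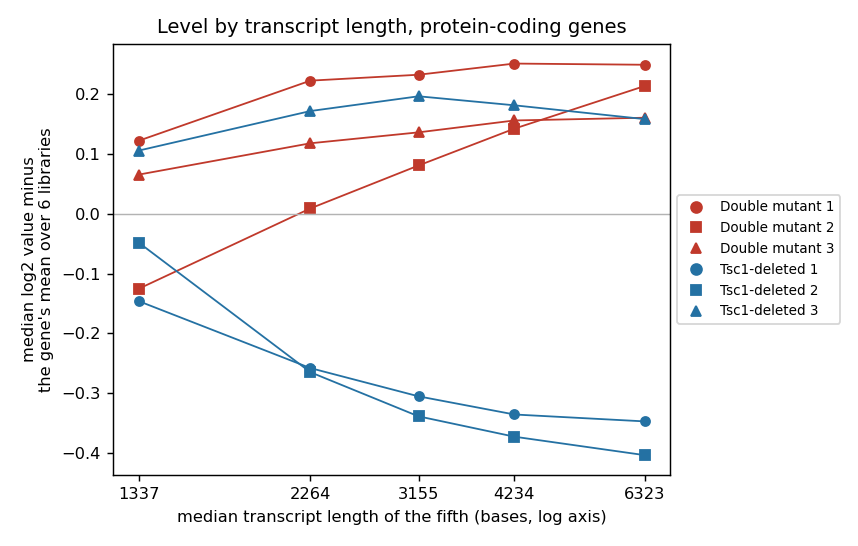
Median log2 level, relative to each gene's mean over the 6 libraries, for 5 groups of protein-coding genes ordered by transcript length (x axis in bases, log scale; 1 line a library). Tsc1-deleted libraries 1 and 2 drop from -0.15 and -0.05 in the shortest group to -0.35 and -0.40 in the longest, and double-mutant library 2 goes from -0.13 to 0.21.

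The labels were first set against the targeted genes and the tissue. Trp53, which encodes p53, stood at 9.4, 5.88 and 6.95 FPKM in double-mutant livers and at 7.11, 9.05 and 15.8 FPKM in Tsc1-deleted livers. The groups overlapped (log2 change -0.42, SE 0.33, adjusted p = 0.518). With median-ratio rescaling the log2 change was -0.77 and the double-mutant livers lay below without overlap, though this did not pass (adjusted p = 0.417). Tsc1 stood at 1.03, 1.14 and 1.04 FPKM in double-mutant livers and 0.771, 0.972 and 0.919 FPKM in Tsc1-deleted livers. Its log2 change of 0.14 (SE 0.19, adjusted p = 0.703) became -0.06 with median-ratio rescaling. Tsc1 is deleted in hepatocytes of both groups and a gene total does not separate the floxed part from the rest, so its level checks no label. The lower Trp53 level did not pass with either scaling, so it does not settle the p53 label. The tissue was liver by its markers. Alb, the mRNA of serum albumin, was at 10044, 8666 and 11818 FPKM in double-mutant livers and 12372, 8433 and 10962 FPKM in Tsc1-deleted livers, and the hepatocyte regulator Hnf4a at 93.9, 96.4 and 72.2 and 70.3, 78.7 and 99.5 FPKM. Both overlapped between groups.

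Slc39a5, Adnp and Hist2h2aa1 were the genes that passed. Each reached 1 FPKM in 1 group only, so that it entered the test through the group where it was high and had to differ. Slc39a5 (ENSMUSG00000039878, chromosome 10) encodes ZIP5, a zinc importer of the cell surface. It stood at 6.36, 6.15 and 7.5 FPKM in double-mutant livers and at 0.267, 0.0587 and 0.190 FPKM in Tsc1-deleted livers. Each double-mutant library was far over all 3 Tsc1-deleted ones, library 3 of that group included. The log2 change was 2.71 (SE 0.22, adjusted p = 0.00325), and 2.72 without Tsc1-deleted library 3. The model of Ankrd52 runs over it on the other strand, at 2.22, 4.27 and 2.7 FPKM in double-mutant livers and 0.676, 0.720 and 2.12 FPKM in Tsc1-deleted livers. Whether counting used strand is not stated, so reads of the overlap cannot be told apart, although Slc39a5 was higher than Ankrd52 in every double-mutant library and lower in every Tsc1-deleted one.

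Adnp (ENSMUSG00000051149, chromosome 2) encodes a homeobox protein that binds chromatin. It was at 10.8, 9.38 and 7.99 FPKM in double-mutant livers and listed at 0, 0 and 0.104 FPKM in Tsc1-deleted livers, a log2 change of 3.32 (SE 0.23, adjusted p = 0.00113). Adnp shares its place and strand with the model Gm20716, which went the other way, at 4.02, 0 and 0 FPKM and 0.293, 4.41 and 11.6 FPKM. The sum of both models was 14.8, 9.38 and 7.99 FPKM in double-mutant livers and 0.293, 4.41 and 11.7 FPKM in Tsc1-deleted livers, and those sums overlapped. The separation of the groups in Adnp was not there in the sum.

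Hist2h2aa1 (ENSMUSG00000064220, chromosome 3) encodes a replication-type histone H2A. In Tsc1-deleted livers it stood at 33.5, 71.6 and 42.9 FPKM, and every double-mutant library listed it at 0 (log2 change -5.58, SE 0.31, adjusted p = 0.000399). The gene has a twin beside it, Hist2h2aa2, which was listed at 0 in all 6 libraries. Of the 537 stretches of 50 bases, the read length, in the Hist2h2aa1 transcript, 479 (89.2%) also occur in the Hist2h2aa2 transcript. Reads from those stretches cannot be assigned to 1 of the twins, and the call is uncertain. Gm20634, which shares the strand of Hist2h2aa1, was also listed at 0 in the double mutant and stood at 1.17, 1.5 and 3.77 FPKM in Tsc1-deleted livers. Gm20634 too had entered the test through the Tsc1-deleted livers only. Gm20632, which runs over the twin on the other strand, was at 7.18, 5.04 and 5.39 FPKM in double-mutant livers and 8.58, 18.4 and 11.8 FPKM in Tsc1-deleted livers. Of 19 histone genes tested, Hist2h2aa1 alone passed, 1 lay above and 4 below without overlap, or 0 and 8, and the median log2 change was -0.16, or -0.47. The upstream regions of the twins show how alike they are. From RefSeq (GRCm38.p6), the 2 sequences below lie on chromosome 3 before the gene starts, at chr3:96245288-96245437 on the plus strand and chr3:96240394-96240543 on the minus strand, and are the first bases of an identical run of 169.
Hist2h2aa1: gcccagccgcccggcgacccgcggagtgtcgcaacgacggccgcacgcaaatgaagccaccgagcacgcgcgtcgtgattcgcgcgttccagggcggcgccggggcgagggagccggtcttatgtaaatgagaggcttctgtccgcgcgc
Hist2h2aa2: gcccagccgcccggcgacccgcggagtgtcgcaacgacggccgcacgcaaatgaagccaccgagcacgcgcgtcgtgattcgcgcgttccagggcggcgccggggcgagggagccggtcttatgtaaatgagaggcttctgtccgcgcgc

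After these genes, 10 others made up the rest of the lowest p values among genes above without overlap with at least 2 FPKM on average, none of which passed with all 6 libraries (adjusted p 0.0937 to 0.255). Each passed without Tsc1-deleted library 3, and with median-ratio rescaling as well Casp9 and Tbcel did. Casp9 and Dab2ip reached 1 FPKM in the double mutant only, so they entered the test through it and had to differ. Casp9, the caspase that starts mitochondrial apoptosis, stood at 4.06, 4.33 and 3.4 FPKM in double-mutant livers and 0.222, 0.149 and 0.715 FPKM in Tsc1-deleted livers (log2 change 1.87, SE 0.24). Tbcel, a regulator of tubulin folding, stood at 4.71, 7.43 and 5.33 and 0.0402, 0.234 and 1.29 FPKM (log2 change 2.23, SE 0.33). In both genes Tsc1-deleted library 3 was the highest of its group and still far under the double mutant. Dab2ip, a Ras GTPase-activating protein, was at 3.12, 2.81 and 3.07 FPKM against 0.580, 0.179 and 0.440 FPKM, and Rap1gap2, which acts likewise on Rap1, at 4.17, 4.2 and 3.72 FPKM against 0.544, 0.866 and 1.22 FPKM. Glg1, a Golgi glycoprotein, was almost the same in the 3 double-mutant libraries, at 7.76, 7.83 and 7.8 FPKM against 2.21, 1.31 and 2.93 FPKM. Cul7, a scaffold of ubiquitin ligases, was at 5.54, 9.46 and 11.9 FPKM against 1.41, 1.61 and 2.59 FPKM. Il22ra1, a subunit of the interleukin-22 receptor of hepatocytes, was at 3.07, 3.14 and 3.54 FPKM against 0.450, 0.458 and 1.2 FPKM, and Fam84b at 17.8, 11.9 and 9.64 FPKM against 2.78, 2.95 and 4.64 FPKM. Their log2 changes lay between 1.35 for Il22ra1 and 2.23 for Tbcel. The other 2, Rragd and Slc39a4, belong to lists described below.

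**Figure D3:**
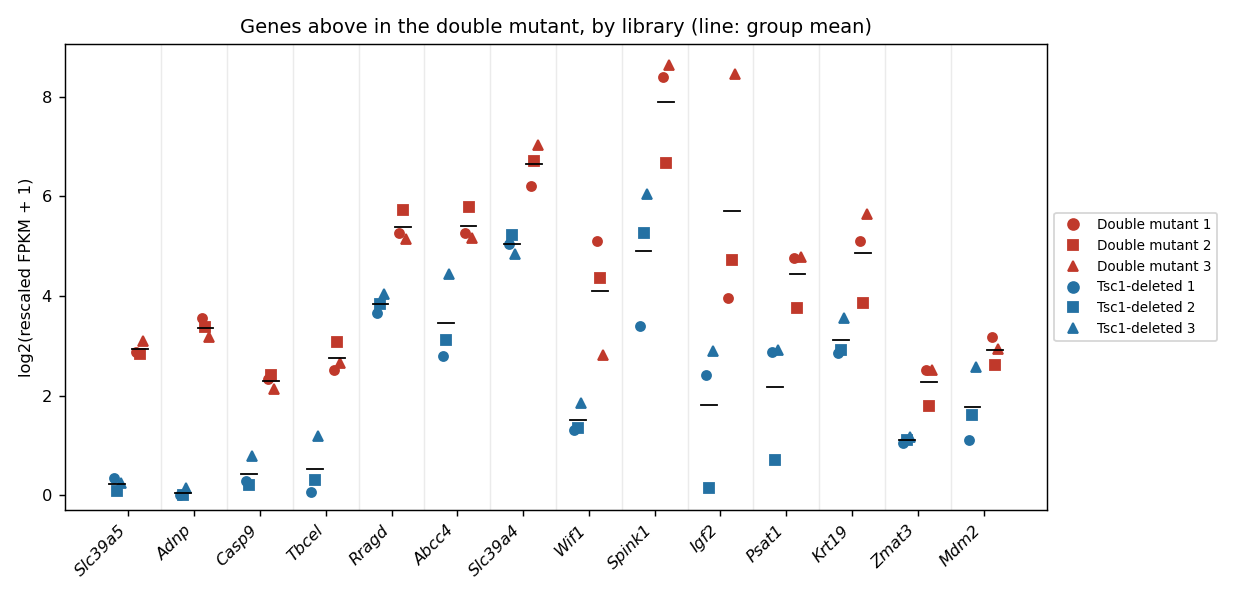
Level of 14 genes that lay above without overlap, as log2(rescaled FPKM + 1) for each library (red, double mutant; blue, Tsc1-deleted; line, group mean). Slc39a5 and Adnp passed the test. In most of the others Tsc1-deleted library 3, the blue triangle, is the highest of its group, as for Abcc4 at 20.7 FPKM and Mdm2 at 4.96 FPKM.

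Across 53 gene lists for liver functions, signalling and cell types, which hold 1130 tested genes, 2 genes passed, Slc39a5 in the zinc list and Hist2h2aa1 in the histone list. The other 51 lists held no passing gene with all 6 libraries (limma), while 189 list genes had an unadjusted p under 0.05. Those lists are described by their counts and medians. All lists were chosen with earlier results of these data known. In bulk tissue, fewer cells of a type and less RNA per cell cannot be told apart.

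Zinc carriers other than Slc39a5 differed among themselves. Of the other 20 tested genes for zinc importers, exporters and metallothioneins, 6 lay above and 0 below without overlap, or 3 and 2, against 13.4% and 3.37%, or 8.46% and 8.3%, of all genes. The median log2 change with Slc39a5 included was 0.32, or 0.01, close to that of all genes with each scaling. Slc39a4, the ZIP4 importer, stood at 73.4, 104 and 129 FPKM in double-mutant livers and 32.1, 36.4 and 27.6 FPKM in Tsc1-deleted livers. Here Tsc1-deleted library 3 was the lowest of the 6 (log2 change 1.62, SE 0.30, adjusted p = 0.255). Slc39a7, the ZIP7 carrier of the endoplasmic reticulum, stood at 15.9, 19.97 and 21.2 FPKM and 5.11, 6.25 and 12.5 FPKM (log2 change 1.24). Slc39a11 stood at 13.1, 18.7 and 9.93 FPKM and 0.505, 7.29 and 9.82 FPKM, with the lowest double-mutant and the highest Tsc1-deleted library at nearly the same level. With Tsc1-deleted library 3 left out, 4 of the 21 zinc genes passed as higher, against 9.11% of all genes, and none as lower.

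p53 targets were set against the loss of 1 p53 allele. Of 37 tested targets 5 lay above and 1 below without overlap, or 3 and 2, shares near the 13.4% and 3.37%, or 8.46% and 8.3%, of all genes. The median log2 change was 0.42, or 0.17. Zmat3, an RNA-binding protein and tumour suppressor, stood at 4.72, 2.46 and 4.68 FPKM in double-mutant livers and 1.05, 1.16 and 1.24 FPKM in Tsc1-deleted livers. The Tsc1-deleted libraries, library 3 included, were tightly grouped under all double-mutant ones (log2 change 1.17, SE 0.27, adjusted p = 0.339). Mdm2 was at 8.09, 5.08 and 6.69 FPKM and 1.15, 2.06 and 4.96 FPKM, so that Tsc1-deleted library 3 almost reached the lowest double-mutant library (log2 change 1.15, SE 0.39). Ccng1, a cyclin induced by p53, was at 23.2, 18.2 and 45.2 FPKM and 14.2, 11.3 and 16.3 FPKM. Ccnd1, the G1 cyclin, was at 46.9, 17.4 and 22.3 FPKM and 12.96, 11.1 and 11.1 FPKM. Both lay above without overlap here, and both overlapped with median-ratio rescaling. Cdkn1a, the cell cycle inhibitor p21, was chosen after its values were seen. It was at 64.4, 9.36 and 45.3 FPKM and 8.7, 14.2 and 30.95 FPKM, which overlapped. Without Tsc1-deleted library 3, 4 targets passed as higher, Zmat3 and Mdm2 among them, and 0 as lower, near the 9.11% and 0.992% of all genes. Among 20 genes of caspases and apoptosis 4 lay above and none below without overlap, or 1 and 0, with a median of 0.40, or 0.06. Those above were Casp9, which entered the test through the double mutant only, and the survival genes Bcl2l1, Birc3 and Mcl1. Bcl2l1 was at 17.7, 9.14 and 15.8 FPKM against 6.45, 8.71 and 7.2 FPKM and Mcl1 at 65.5, 47.7 and 48.02 FPKM against 31.8, 28.7 and 42.2 FPKM, and Casp9 alone of the 4 also lay above with median-ratio rescaling.

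The Tsc and mTORC1 pathway itself stayed close to all genes. Of 28 tested members 3 lay above and 1 below without overlap, or 1 and 1, and the median was 0.32, or 0.01. The list holds long transcripts, with a median of 5123 bases against 3154.5 for all tested protein-coding genes. Rictor, the defining subunit of mTORC2, was at 2.73, 2.88 and 2.16 FPKM in double-mutant livers and 1.3, 1.09 and 1.78 FPKM in Tsc1-deleted livers. Of the S6 kinases, Rps6kb1 was at 2.99, 3.55 and 2.91 FPKM against 2.01, 1.95 and 2.56 FPKM and Rps6kb2 at 6.4, 5.7 and 5.4 FPKM against 6.78, 7.99 and 6.73 FPKM, so 1 lay above and 1 below. Rragd encodes a Rag GTPase that brings mTORC1 to the lysosome, and its gene is a target of the MiT/TFE factors. It stood at 37.3, 52.2 and 34.6 FPKM and 11.7, 13.2 and 15.4 FPKM, with the Tsc1-deleted libraries close together (log2 change 1.54, SE 0.28, adjusted p = 0.255, and 0.0415 without Tsc1-deleted library 3). Of the folliculin complex, Flcn was at 9.65, 9.95 and 11.1 FPKM against 6.81, 6.5 and 9.0 FPKM and Fnip1 at 4.39, 6.6 and 4.41 FPKM against 3.57, 2.61 and 3.6 FPKM, and these lay above without overlap, though not with median-ratio rescaling. Of 16 tested genes of this list 3 lay above and none below, or 1 and 0, with a median of 0.30, or 0.01.

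Many lysosome and autophagy genes are MiT/TFE targets. Of 38 tested genes of this list 9 were above and 0 below without overlap, against 13.4% and 3.37% of all genes, or 4 and 1, against 8.46% and 8.3%. The median was 0.48, or 0.10, and 36 changes were positive with the main scaling, against 74.8% of all genes. Ctsl, a lysosomal protease, was at 294, 239 and 229 FPKM in double-mutant livers and 114, 62.7 and 209 FPKM in Tsc1-deleted livers. Subunits of the lysosomal proton pump had the same order of the Tsc1-deleted libraries, Atp6v1a at 15.8, 21.99 and 21.1 FPKM against 7.49, 6.66 and 14.2 FPKM and Atp6v1b2 at 17.1, 18.3 and 26.7 FPKM against 9.04, 7.1 and 14.6 FPKM. In all 3 genes Tsc1-deleted library 3 was the nearest of its group to the double mutant, whose own order of libraries differed between the genes. Their log2 changes were 1.14, 1.04 and 0.98, none of which passed, and 1.57, 1.34 and 1.24 without that library, all of which passed, though none did with median-ratio rescaling as well.

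Amino acid and stress genes had medians over that of all genes. The amino acid list includes targets of the factor ATF4. Of its 30 tested genes 7 lay above and none below without overlap, or 4 and 0. The shares of all genes were 13.4% and 3.37%, or 8.46% and 8.3%, and the list median was 0.79, or 0.43. Psat1 and Psph encode consecutive enzymes of serine synthesis. Psat1 was at 26.3, 12.6 and 26.4 FPKM in double-mutant livers and 6.33, 0.632 and 6.55 FPKM in Tsc1-deleted livers (log2 change 2.27, SE 0.61), and Psph at 11.2, 5.75 and 8.44 FPKM and 2.75, 2.45 and 5.24 FPKM (log2 change 1.09). Psat1 was lowest in Tsc1-deleted library 2 and alike in libraries 1 and 3 of that group. Aldh18a1, the first enzyme of proline synthesis, was at 9.46, 7.25 and 7.79 FPKM and 1.99, 1.83 and 4.16 FPKM (log2 change 1.37, SE 0.30, adjusted p = 0.339). A pseudogene model, Gm15801, lies on its strand and stood at 10.2, 9.94 and 8.48 FPKM and 3.44, 1.42 and 10.8 FPKM. Of the list, 5 genes passed as higher and 1 as lower without Tsc1-deleted library 3, against 9.11% and 0.992% of all genes. With median-ratio rescaling as well, none did.

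Protein folding genes of the endoplasmic reticulum had 7 of 26 above and none below without overlap, or 5 and 0. For all genes the shares were 13.4% and 3.37%, or 8.46% and 8.3%. The median of the folding list was 0.43, or 0.06. The chaperone Hyou1 was at 14.8, 9.18 and 9.19 FPKM in double-mutant livers and 1.69, 1.16 and 7.09 FPKM in Tsc1-deleted livers (log2 change 1.71, SE 0.49). Canx, calnexin, was at 99.4, 86.6 and 75.00 FPKM and 30.3, 21.2 and 66.5 FPKM. The stress sensor Atf6 was at 10.5, 12.4 and 10.1 FPKM and 4.1, 5.12 and 6.61 FPKM, with less distance between Tsc1-deleted library 3 and the rest of its group. Targets of the oxidative stress factor NRF2 had 5 of 41 above and 1 below, or 4 and 0, with a median of 0.45, or 0.07. Gsr, glutathione reductase, was at 41.9, 63.7 and 82.5 FPKM and 18.3, 23.5 and 39.7 FPKM, and Prdx1, a peroxiredoxin, at 265, 262 and 406 FPKM and 147, 86.8 and 251 FPKM. Immediate early and heat shock genes, which also respond to how tissue is handled, had 4 of 24 above and none below, or 2 and 0, with a median of 0.62, or 0.33. Hspa1a, an inducible HSP70, was at 2.84, 14.97 and 4.09 FPKM and 2.14, 0.266 and 0.348 FPKM, and Fosl2 at 3.32, 2.39 and 3.46 FPKM and 1.03, 1.03 and 2.36 FPKM. The part of handling in these lists was not tested.

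Glycolysis and hypoxia genes had 10 of 31 above and none below without overlap, or 4 and 0. Among all genes the shares were 13.4% and 3.37%, or 8.46% and 8.3%. The list median was 0.70, or 0.39. Ldha, lactate dehydrogenase A, was at 118, 101 and 177 FPKM in double-mutant livers and 64.8, 56.6 and 84.5 FPKM in Tsc1-deleted livers. Ndrg1, a gene induced by hypoxia, was at 128, 69.5 and 108 FPKM and 17.9, 35.3 and 67.7 FPKM. Ero1l, an oxidase of protein folding, was at 7.27, 7.17 and 20.9 FPKM and 2.93, 2.57 and 5.62 FPKM, highest in double-mutant library 3. The log2 changes of 0.91, 1.47 and 1.33 did not pass (adjusted p = 0.385 for each).

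Fetal and liver tumour genes had the highest list median, 1.2, or 0.87. Of 40 tested genes 13 lay above and none below without overlap, or 11 and 0, against 13.4% and 3.37%, or 8.46% and 8.3%, of all genes. Abcc4, which was recalled from the study and is described below, is among those above. Igf2, a fetal growth factor that the adult mouse liver shuts off, was at 14.5, 25.6 and 349 FPKM in double-mutant livers and 4.32, 0.104 and 6.48 FPKM in Tsc1-deleted livers. Double-mutant library 3 held many times the level of the others (log2 change 3.89, SE 1.16, adjusted p = 0.385). Spink1, a secreted trypsin inhibitor, was at 339, 101 and 396 FPKM and 9.58, 37.3 and 65.02 FPKM, lowest in library 2 of the double mutant (log2 change 3.0, SE 0.74). Wif1, a secreted Wnt inhibitor, was at 33.4, 19.7 and 6.08 FPKM and 1.49, 1.55 and 2.59 FPKM and had its lowest double-mutant value in library 3 (log2 change 2.6, SE 0.53). Igf2 and Spink1 were highest in double-mutant library 3 and Wif1 in library 1. Igf2r, the receptor that clears Igf2, was at 16.8, 12.97 and 26.9 FPKM and 5.32, 4.04 and 8.55 FPKM (log2 change 1.5). Scd2, a fatty acid desaturase of fetal liver, was at 39.2, 43.9 and 98.6 FPKM and 16.3, 11.5 and 29.4 FPKM. Without Tsc1-deleted library 3, 11 of the 40 passed as higher, against 9.11% of all genes, and none as lower.

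Abcc4 encodes MRP4, a pump of the basolateral hepatocyte membrane that exports bile acids and other organic anions. It stood at 37.5, 53.96 and 35.1 FPKM in double-mutant livers and 5.95, 7.61 and 20.7 FPKM in Tsc1-deleted livers. The groups did not overlap, though Tsc1-deleted library 3 lay between its group and the double mutant (log2 change 1.96, SE 0.44, adjusted p = 0.339). Without that library the change was 2.46 and passed (adjusted p = 0.0378), but with median-ratio rescaling as well it did not (adjusted p = 0.061). Abcc5, a related pump, was at 5.73, 5.75 and 6.92 FPKM and 2.01, 2.83 and 4.07 FPKM (log2 change 0.87), and the uptake carrier Slco1a4 was at 3.26, 3.57 and 4.68 FPKM and 10.01, 5.22 and 6.81 FPKM, below without overlap. Of 21 bile acid transporters tested 3 lay above and 2 below, or 2 and 2, and the median changed sign with the scaling, from 0.11 to -0.26.

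Markers of bile duct cells and progenitors had a positive log2 change in 20 of 20 tested genes, against 74.8% of all genes. The list median was 0.97, or 0.62. Without overlap 9 lay above and none below, or 7 and 0, against 13.4% and 3.37%, or 8.46% and 8.3%, of all genes. Also in the fetal and tumour list are 7 of the 20. The summed level was 5510, 2435 and 3622 FPKM in double-mutant livers and 1196, 1490 and 3560 FPKM in Tsc1-deleted livers, which overlapped. Spp1, the secreted osteopontin, was at 3452, 949 and 1440.5 FPKM and 516, 521 and 2583 FPKM. It made up most of that sum in double-mutant library 1 and Tsc1-deleted library 3 only. Keratin 19 (Krt19) was at 33.2, 13.5 and 48.8 FPKM and 6.26, 6.58 and 10.8 FPKM (log2 change 1.75, SE 0.45) and the adhesion molecule Epcam at 29.6, 15.7 and 32.97 FPKM and 7.06, 5.97 and 13.7 FPKM (log2 change 1.46, SE 0.39). Both separated the groups. The tight junction gene Cldn4 was at 22.6, 4.25 and 76.1 FPKM and 2.23, 3.98 and 3.18 FPKM, where double-mutant library 2 hardly exceeded the Tsc1-deleted livers. Anxa3 was at 23.5, 5.03 and 14.5 FPKM and 1.36, 1.15 and 3.79 FPKM (log2 change 2.19). Keratin 8, which hepatocytes make too, was at 782, 693 and 729 FPKM and 315, 347 and 437 FPKM (log2 change 1.02). None of the 22 listed markers was at 0 in all 6 libraries. Without Tsc1-deleted library 3, 4 passed as higher and none as lower, against 9.11% and 0.992% of all genes.

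**Figure D4:**
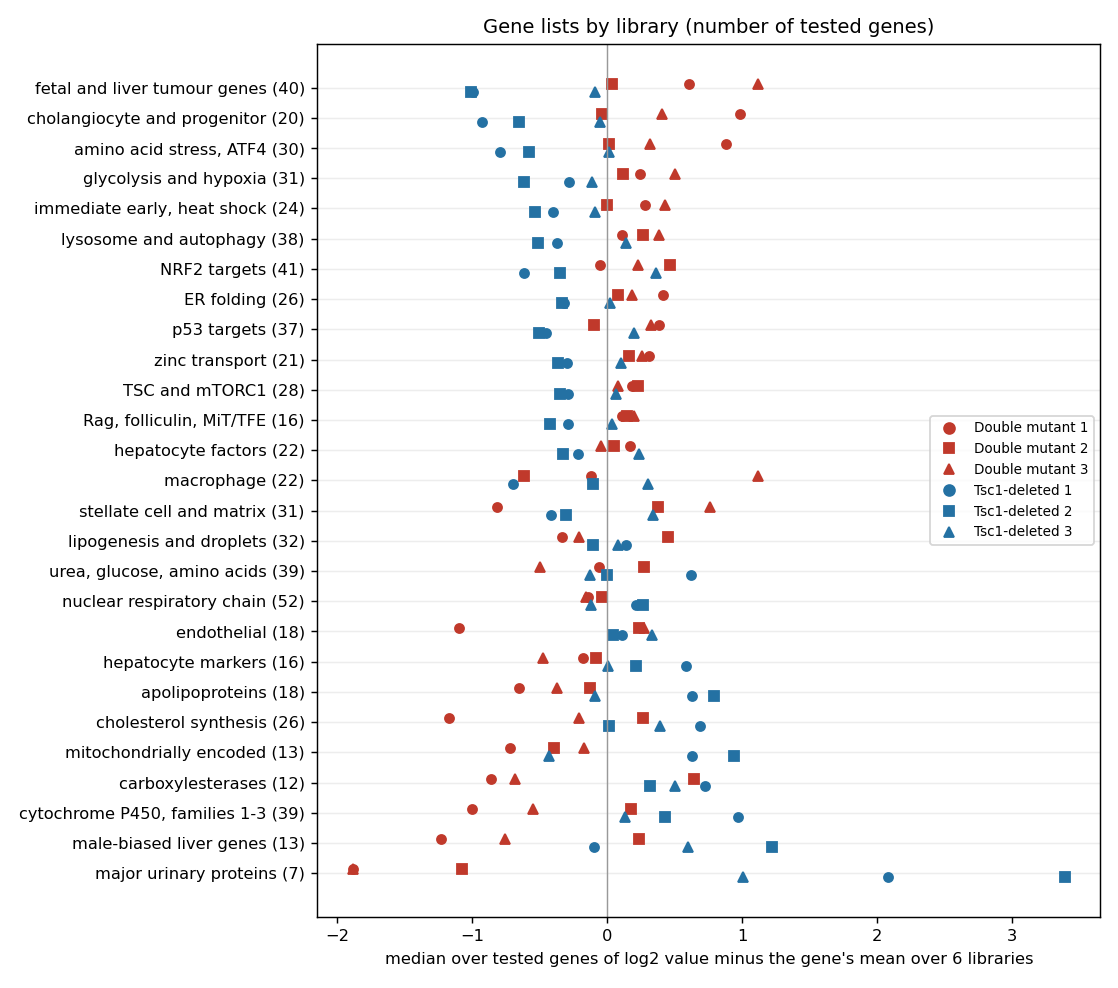
Median over the tested genes of each list of the log2 level minus the gene's mean over the 6 libraries (x axis, log2 units; red, double mutant; blue, Tsc1-deleted; number of tested genes in brackets). Fetal, duct and stress lists lie further right in the double mutant than in Tsc1-deleted libraries 1 and 2, with library 3 of that group (blue triangle) between or beside them, and the major urinary proteins lie to the left in all 3 double-mutant libraries.

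Major urinary protein genes, which encode pheromone carriers that the liver secretes, were the list with the lowest median, -3.76, or -3.95. Summed over 49 gene and pseudogene models they came to 75.04, 1008 and 37.2 FPKM in double-mutant livers and 4021, 5686 and 3885 FPKM in Tsc1-deleted livers. The 7 tested members lay below without overlap with each scaling, 3 of which passed the filter through the Tsc1-deleted libraries alone and so had to differ. Mup20, darcin, was at 71.8, 725 and 32.9 FPKM and 2949, 3602 and 2859.5 FPKM (log2 change -4.68, SE 0.97, adjusted p = 0.339). Mup3 was at 2.36, 15.4 and 2.94 FPKM and 247, 400.3 and 76.8 FPKM (log2 change -5.04, SE 0.74, adjusted p = 0.214). Mup17 and Mup11 were listed at 0 in all 3 double-mutant libraries, against 9.47, 43.8 and 4.32 FPKM and 2.38, 12.7 and 2.58 FPKM. Double-mutant library 2 held most of what was left. These genes are under male-type growth hormone secretion, and the libraries differed in sex-linked transcripts. Xist, made from the inactive X chromosome, stood at 25.1, 0.0101 and 28.6 FPKM in double-mutant livers and 24.2, 0.00887 and 0.00312 FPKM in Tsc1-deleted livers, and the Y-linked Eif2s3y at 0, 8.06 and 0 FPKM and 0.0314, 5.81 and 8.11 FPKM. Among the libraries with Xist, Mup20 was at 71.8 and 32.9 FPKM in double-mutant livers and 2949 FPKM in the Tsc1-deleted one. Among those with Eif2s3y over 5 FPKM it was at 725 FPKM and at 3602 and 2859.5 FPKM. With Xist as a covariate the log2 change of Mup20 was -3.97 and did not pass (adjusted p = 0.48).

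Several urinary protein genes are close copies, among which reads can be split. The promoters of the genes just named are shown for how far they are alike. The sequences below, from RefSeq (GRCm38.p6), are the 67 bases that end in the TATA motif TATATAA, in capitals, on the minus strand of chromosome 4 at chr4:62087322-62087388, chr4:61595851-61595917 and chr4:60662391-60662457.
Mup3: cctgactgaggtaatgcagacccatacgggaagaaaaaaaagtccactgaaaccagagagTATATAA
Mup17: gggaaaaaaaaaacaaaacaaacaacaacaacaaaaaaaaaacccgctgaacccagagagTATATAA
Mup11: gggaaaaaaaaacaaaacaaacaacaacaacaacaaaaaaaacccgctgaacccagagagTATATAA
Mup17 and Mup11 are 97.0% identical over these bases, while Mup3 is 61.2% and 62.7% identical to them. TATATAA was found on either strand in 1065 of 32851 RefSeq promoters (3.24%). Mup17 and Mup11 were listed at 0 in the same 3 libraries, and Mup3 was not. A listing at 0 was common there. Of the 49 gene and pseudogene models 4, 13 and 8 were above 0 in the double-mutant libraries and 25, 29 and 20 in the Tsc1-deleted ones. Whether promoter likeness goes with level, and how reads were split among the transcripts, was not tested.

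Cytochrome P450 enzymes of families 1 to 3, which oxidise drugs and steroids, had 35 of 39 tested genes with a negative log2 change, against 25.2% of all genes. Without overlap none lay above and 9 below, or 0 and 10, against 13.4% and 3.37%, or 8.46% and 8.3%, of all genes. The list median was -0.85, or -1.09. Cyp2c54 was at 1.67, 6.02 and 2.66 FPKM in double-mutant livers and 28.00, 76.2 and 18.1 FPKM in Tsc1-deleted livers (log2 change -3.1, SE 0.56, adjusted p = 0.255). Cyp1a2, which oxidises caffeine, was at 4.97, 48.4 and 17.8 FPKM and 162, 158 and 112 FPKM (log2 change -3.02, SE 0.67). Cyp3a11, the main drug oxidase, was at 54.2, 126 and 86.00 FPKM and 462, 360.2 and 142 FPKM (log2 change -1.76, SE 0.50). Double-mutant library 2 was the highest of its group for all of these and library 1 the lowest. Library 2 was also the only double-mutant library with the Y-linked Eif2s3y, which was at 0.0314, 5.81 and 8.11 FPKM in Tsc1-deleted livers. With Xist as a covariate the log2 changes of Cyp2c54, Cyp1a2 and Cyp3a11 were -2.82, -2.68 and -1.79, and none passed. Nr1i3, the nuclear receptor CAR that drives many P450 genes, was at 3.9, 6.5 and 6.24 FPKM and 21.3, 18.2 and 7.65 FPKM (log2 change -1.27). Sult2a8, a sulphotransferase, was at 1.07, 4.95 and 2.01 FPKM and 10.8, 40.7 and 14.5 FPKM (log2 change -2.56). Among 12 carboxylesterases none lay above and 3 below, or 0 and 3, at a median of -0.83, or -1.19, with Ces3b at 0.0895, 5.83 and 0.702 FPKM and 28.7, 40.97 and 8.57 FPKM (log2 change -3.29, SE 0.75). The P450 list has a median transcript length of 1901.5 bases. Its summed level was 1684.9, 5061.5 and 5530.3 FPKM in double-mutant livers and 6041.5, 4610.8 and 4047.5 FPKM in Tsc1-deleted livers, which overlapped. Without Tsc1-deleted library 3, 5 of its genes passed as lower, against 0.992% of all genes.

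**Figure D5:**
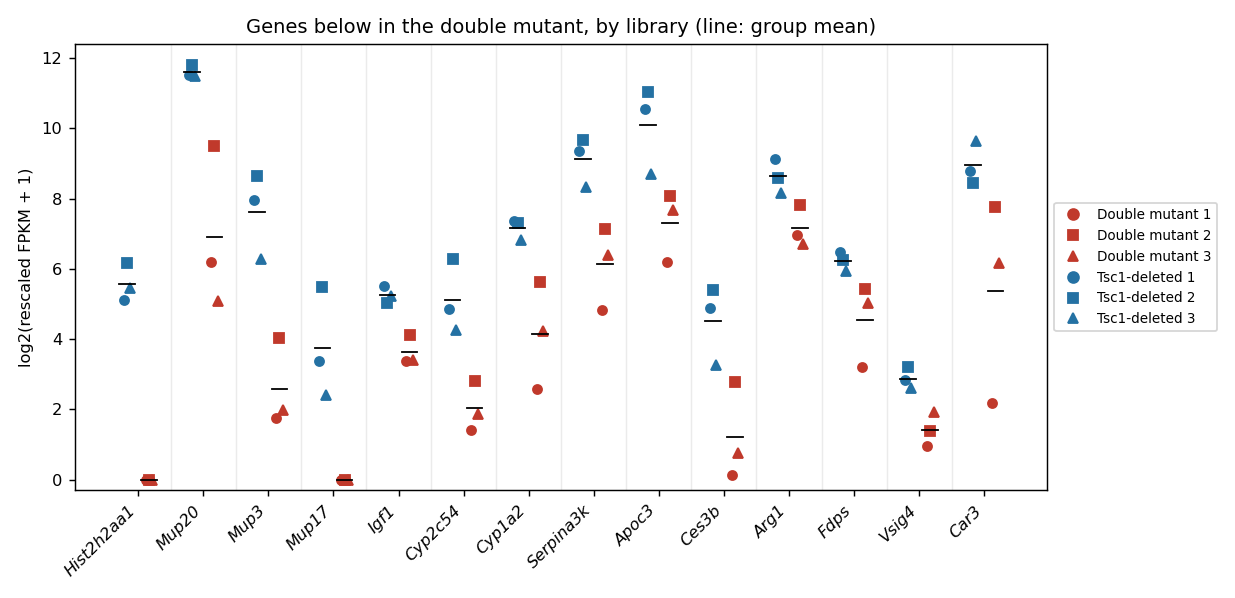
Level of 14 genes that lay below without overlap, as log2(rescaled FPKM + 1) for each library (red, double mutant; blue, Tsc1-deleted; line, group mean). Hist2h2aa1 passed the test. Double-mutant library 2 (red square) is the highest of its group for most metabolic genes, as for Mup20 at 725 FPKM against 71.8 and 32.9 FPKM, and the groups of Igf1 are apart. Library 2 is also the only double-mutant library with the Y-linked Eif2s3y.

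Cholesterol synthesis genes under the factor SREBP2 had 21 of 26 negative changes, against 25.2% of all genes. None lay above and 9 below without overlap, or 0 and 10, against 13.4% and 3.37%, or 8.46% and 8.3%, of all genes. The median was -0.76, or -1.13, and the median transcript length of 3492.5 bases was near that of all genes. Fdps, farnesyl diphosphate synthase, was at 8.18, 42.5 and 31.4 FPKM in double-mutant livers and 88.8, 75.4 and 60.8 FPKM in Tsc1-deleted livers. Nsdhl, a later enzyme of the pathway, was at 5.71, 25.7 and 15.1 FPKM and 40.6, 34.2 and 50.2 FPKM, and Tm7sf2, a sterol reductase, at 1.71, 5.71 and 6.37 FPKM and 16.7, 7.55 and 12.6 FPKM. Hmgcs1, the enzyme before the rate-limiting step, was at 16.4, 82.8 and 59.2 FPKM and 186, 108 and 89.9 FPKM. Double-mutant library 1 was the lowest of the 6 for each of these genes, while the other double-mutant libraries came closer to the Tsc1-deleted range. Their log2 changes of -1.68, -1.57, -1.32 and -1.47 did not pass (adjusted p = 0.385 for each). Tsc1-deleted library 3 lay over all double-mutant libraries in each of them. Lipid synthesis and droplet genes did not lean 1 way, with 3 above and 1 below of 32, or 2 and 3, and a median of -0.12, or -0.49. Gpam, which starts triglyceride synthesis, was at 7.49, 22.6 and 8.88 FPKM and 3.78, 1.84 and 7.18 FPKM, and the droplet protein Plin4 at 1.67, 2.58 and 2.5 FPKM and 2.86, 2.96 and 10.7 FPKM.

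In bile acid synthesis 2 of 22 genes lay above and 1 below, or 2 and 2, with a median of -0.21, or -0.59. Cyp39a1, an oxysterol hydroxylase, was at 57.7, 19.8 and 20.7 FPKM in double-mutant livers and 6.04, 6.45 and 15.4 FPKM in Tsc1-deleted livers (log2 change 1.65), and Klb, the FGF15 co-receptor, at 7.0, 5.14 and 4.66 FPKM and 2.45, 1.66 and 2.81 FPKM (log2 change 1.00). Akr1c6 was at 37.7, 69.1 and 62.01 FPKM and 213, 132 and 139 FPKM, the reverse order (log2 change -1.51, SE 0.34). Of 39 genes of the urea cycle, gluconeogenesis and amino acid breakdown 29 had negative changes, against 25.2% of all genes. The list median was -0.27, or -0.66, and 1 lay above and 2 below without overlap, or 0 and 2. Arg1, the last enzyme of the urea cycle, was at 124, 224 and 104 FPKM and 565, 387 and 285 FPKM (log2 change -1.47, SE 0.40), and Bhmt, which remethylates homocysteine, at 391, 409 and 257 FPKM and 772, 689 and 529 FPKM (log2 change -0.92). Acaa1b, a thiolase of peroxisomes, was at 58.3, 109 and 66.3 FPKM and 255, 317 and 112 FPKM, but below without overlap only before median-ratio rescaling. Rgn, regucalcin, was at 26.5, 70.5 and 48.8 FPKM and 302, 278 and 84.03 FPKM (log2 change -2.07), with Tsc1-deleted library 3 nearer to the double mutant than to its own group.

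Secreted plasma proteins differed among themselves. Of 22 tested genes of albumin and other carriers none lay above and 3 below without overlap, or 0 and 4, with a median of -0.15, or -0.54. Igf1, which is not in that list, encodes the growth factor that the liver makes under growth hormone. It was at 9.35, 16.4 and 9.7 FPKM in double-mutant livers and 45.1, 31.9 and 36.3 FPKM in Tsc1-deleted livers. The groups were apart in all libraries (log2 change -1.62, SE 0.30, adjusted p = 0.255), and the change was -1.65 without Tsc1-deleted library 3 (adjusted p = 0.0437). An antisense model, Igf1os, stood under 1 FPKM in all 6. Serpina3k, a protease inhibitor, was at 27.7, 141 and 82.9 FPKM and 657, 817 and 325 FPKM (log2 change -3.0, SE 0.61), and Serpina1a, an antitrypsin, at 422, 482 and 425 FPKM and 859, 881 and 749.7 FPKM (log2 change -0.90). Both belong to families of close copies. Of 18 apolipoproteins 1 lay above and 3 below, or 1 and 4, with a median of -0.69, or -1.07. Apoc3, an inhibitor of triglyceride clearance, was at 72.5, 271 and 202 FPKM and 1513, 2082 and 418 FPKM (log2 change -2.78, SE 0.69). Apoa1, the main protein of HDL, was at 3486, 4734 and 3101 FPKM and 8224, 10184 and 5357 FPKM (log2 change -1.04), and Apof at 99.8, 215 and 136 FPKM and 503, 401 and 254 FPKM (log2 change -1.37). Apom, which carries sphingosine 1-phosphate on HDL, went the other way, at 430.4, 384 and 690.1 FPKM and 156, 106 and 201 FPKM (log2 change 1.69, SE 0.37, adjusted p = 0.339). These transcripts are short, with a median of 1375 bases. The acute phase list had 2 above and 1 below of 29, or 1 and 3, and complement and coagulation 2 above and 2 below of 42, or 1 and 2. Their medians of 0.04 and 0.07 became -0.35 and -0.32 with median-ratio rescaling.

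Other genes with the lowest p values among those below without overlap were spread over functions. Cib3, a calcium-binding protein, was at 7.94, 17.03 and 8.73 FPKM in double-mutant livers and 46.3, 29.8 and 42.8 FPKM in Tsc1-deleted livers (log2 change -1.78, SE 0.34), Fam25c at 7.03, 5.89 and 3.36 and 30.7, 14.6 and 25.6 FPKM (log2 change -1.92), and Nlrp12, an innate immune receptor, at 0.459, 1.06 and 0.894 and 2.84, 3.96 and 3.27 FPKM (log2 change -1.28). Cipc, a repressor of the CLOCK factor, was at 0.311, 0.582 and 0.452 FPKM and 1.76, 3.01 and 4.61 FPKM (log2 change -1.45). The models Gm10319 and Gm33543 were at 1.5, 1.92 and 1.85 and 6.36, 3.21 and 3.69 FPKM in double-mutant livers and 6.52, 6.31 and 5.74 and 14.8, 17.3 and 13.7 FPKM in Tsc1-deleted livers. None of these 6 genes passed with all 6 libraries (adjusted p 0.255 to 0.278). Cipc reached 1 FPKM in Tsc1-deleted livers only, so it entered the test through them and had to differ.

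Markers of other cells were read for what the pieces of liver held. Of 16 hepatocyte markers none lay above and 3 below without overlap, or 0 and 3, with a median of -0.40, or -0.79. Their 22 tested regulators had 1 above and 1 below, or 0 and 3, with a median of 0.27, or -0.06. Of 22 tested macrophage markers 16 had positive and 6 negative changes, shares near the 74.8% and 25.2% of all genes. The median of these markers was 0.21, or -0.10, and none lay above and 2 below without overlap, or 0 and 2. Those below were Clec4f and Vsig4, which resident Kupffer cells carry, Clec4f at 0.977, 0.829 and 4.76 FPKM in double-mutant livers and 7.92, 18.9 and 5.02 FPKM in Tsc1-deleted livers and Vsig4 at 0.942, 1.62 and 2.83 FPKM and 6.09, 8.16 and 5.11 FPKM (log2 change -1.89, SE 0.56, and -1.45, SE 0.32). The general macrophage gene Lyz2 was at 162, 76.00 and 264 FPKM and 46.2, 75.5 and 158 FPKM, which overlapped. The summed macrophage level was 483.1 to 1561 FPKM and 375.1 to 1020 FPKM. Endothelial markers were low in double-mutant library 1, at a sum of 19.8 FPKM against 70.8 to 83.0 FPKM in the other 5 libraries. Of 18 tested none lay above and 1 below, or 0 and 2, with a median of -0.34, or -0.57. Stellate cell and matrix genes summed to 434.0 to 652.4 FPKM in double-mutant livers and 221.8 to 488.8 FPKM in Tsc1-deleted livers, with none of 31 outside the overlap with either scaling and a median of 0.18, or -0.11. Of 24 markers of pancreas, gut and fat, 13 were at 0 in all 6 libraries and 5 were tested. Car3, high in fat and in male liver, was among the latter, at 3.51, 217 and 70.4 FPKM and 442, 345 and 797 FPKM (log2 change -3.59, SE 1.22). Haemoglobin and other red cell genes overlapped, at a sum of 37.9 to 325.7 FPKM and 166.2 to 487.7 FPKM. The part of these cells in the results above was not tested.

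Mitochondrially encoded genes had negative changes in 13 of 13, against 25.2% of all genes. Their median was -0.80, or -1.19, and none lay outside the overlap with either scaling. Quantile normalization, which gives the most abundant genes of all libraries the same values, left a median of -0.07. mt-Co1, a subunit of cytochrome oxidase, was at 16688, 23832 and 26861 FPKM in double-mutant livers and 40013, 48597 and 18922 FPKM in Tsc1-deleted livers. Of 52 nuclear genes of the respiratory chain none lay above and 7 below, or 0 and 6, with a median of -0.27, or -0.66. Cox7c, another oxidase subunit, was at 76.5, 65.4 and 80.1 FPKM and 133, 195 and 83.9 FPKM, with Tsc1-deleted library 3 next to the double mutant (log2 change -0.81, SE 0.35). The median transcript of this list has 1297.5 bases, close to the 1337 bases of the shortest of the 5 length groups. Ribosomal protein genes, of 1128 bases at the median, had a median change of 0.28, equal to that of all genes, or -0.10, with 2 of 57 above and none below, or 1 and 0.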

How the data were processed

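RNA of liver was measured in 9 libraries, of which the 6 named here were used. The labels describe TRIzol extraction, depletion of ribosomal RNA and single reads of 50 bases, while another label calls the molecule polyA RNA. The tools were cutadapt, STAR and StringTie and the build mm9, per the submitters' processing notes, which give no versions. The deposited tables hold 1 value a gene, which the header does not name. They were read from the values as FPKM made by the authors. FPKM times the merged exon length of each gene, summed, came to 0.951 to 0.974 of the total that FPKM requires. Depth was estimated from the step that 1 read makes.

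Of 52550 identifiers 52403 matched GENCODE mouse release M21, which annotates another build, so gene coordinates are not printed. Tests used limma 3.58.1 (trend and robust) in R 4.3.3 on log2(FPKM + 1), with genes of at least 1 FPKM in 3 libraries, two-sided and adjusted by Benjamini-Hochberg. Tables and figures used Python 3.11.15, pandas 2.3.3, numpy 2.4.6 and matplotlib 3.10.9.

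The libraries of each group follow from the genotype labels, but this comparison, the genes described as members and the gene lists were chosen with earlier results of these data known, and Abcc4 was recalled from the study. Named genes were Trp53, Tsc1 and Abcc4, every passing gene, the 12 lowest p values in each direction among genes without overlap whose higher group averaged 2 FPKM or more, up to 4 genes of each list with the largest change without overlap, and the 3 highest genes of lists for cell types, sex and RNA quality. Not every gene so named is printed. Alternatives were a pseudocount of 0.1 or 5, a filter at 5 FPKM or none, deposited values, median-ratio and quantile scaling, limma without trend and robust steps, a replicate block, Xist as a covariate, protein-coding genes only and each library left out. Median-ratio rescaling with a library left out, list medians under all settings and counts without overlap under other scalings were added after seeing the data.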

Additional observations from a re-analysis of the deposited data

How the results depend on the processing

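Against 2 higher and 1 lower gene, a filter at 5 FPKM gave 0 and 1 (limma, 819 at an unadjusted p under 0.05), a pseudocount of 0.1 gave 2 and 2, and the other scalings, filters and model settings, apart from the replicate block given below, gave 2 or 3 and 1. Leaving out 1 library gave 2 to 1056 higher and 1 to 115 lower genes. The upper end was without Tsc1-deleted library 3. Without double-mutant library 2 there were 5 and 5, without double-mutant library 3 there were 3 and 2, without Tsc1-deleted library 1 there were 4 and 1, and without Tsc1-deleted library 2 there were 2 and 2. With median-ratio rescaling and 1 library left out the counts were 1 to 19 and 1 to 15. Genes above and below without overlap moved from 1548 and 391 to 980 and 962 with median-ratio rescaling. The causes were not tested.

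The replicate block gave 65 higher and 31 lower genes. The numbers did not pair the libraries, as deviations of same-numbered libraries correlated at -0.11, 0.01 and 0.03.

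Over 91 genes and 23 alternatives, 1964 of 2076 log2 changes kept their direction and side of the threshold and 102 gained the threshold. The call for Slc39a5 ended with the filter at 5 FPKM (adjusted p = 0.304) and with median-ratio rescaling without Tsc1-deleted library 2 (adjusted p = 0.0552), and that for Adnp with the filter at 5 FPKM (adjusted p = 0.178). The log2 change of Tsc1 reversed to -0.061 with median-ratio rescaling, to -0.077 with quantile scaling and, with median-ratio rescaling and 1 library left out, to -0.151 (without Tsc1-deleted library 3), -0.11, -0.063, -0.047 and -0.027. Of the list medians, 204 values moved by more than the spread between libraries. FPKM without counts gives no counting error, so low genes are the least certain.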

Other observations

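The lists not described above gave the following counts and medians, with all 6 libraries and no passing gene besides those named (limma). Values after "or" are with median-ratio rescaling. Imprinted genes had 2 of 17 above and 2 below without overlap, or 2 and 2, with Gnas at 34.1, 31.8 and 44.3 FPKM in double-mutant livers and 51.1, 69.3 and 53.3 FPKM in Tsc1-deleted livers and Snrpn at 3.25, 4.5 and 1.9 FPKM and 5.6, 4.63 and 5.39 FPKM, both below. Their median log2 change was 0.27, or -0.04. Growth hormone and IGF genes had 3 of 20 above and 2 below, or 3 and 3, with a median of 0.20, or -0.09. Jak2, the kinase of the growth hormone receptor, was at 5.25, 4.62 and 5.17 FPKM and 2.22, 2.33 and 4.0 FPKM, opposite in order to Igf1. Iron genes had 4 of 22 above and none below, or 2 and 0, with a median of 0.41, or 0.12. Steap3, a reductase of iron uptake, was at 9.67, 6.39 and 5.18 FPKM and 2.51, 0.553 and 4.34 FPKM, and the exporter ferroportin (Slc40a1) at 12.9, 15.1 and 19.03 FPKM and 8.32, 12.5 and 10.8 FPKM. Circadian genes had 3 of 16 above and 1 below, or 0 and 1, with a median of 0.32, or 0.15. Tef was at 7.04, 18.5 and 7.39 FPKM and 6.02, 0.324 and 6.99 FPKM, with the lowest value of all in Tsc1-deleted library 2. The labels do not tell the time of day of collection.

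Proliferation genes had positive changes in 24 of 25, against 74.8% of all genes, and a median of 0.41, or 0.18. Without overlap 1 lay above, Ccnd1, or 0. Interferon genes had a median of 0.01, or -0.22. Of 35 tested none lay above and 1 below, or 0 and 6, the 1 below with the main scaling being the sensor Zbp1, at 3.27, 3.77 and 3.79 FPKM and 4.52, 3.81 and 5.4 FPKM. Of 11 antigen presentation genes of MHC class II 1 lay above and 1 below, or 0 and 1, with a median of 0.25, or -0.13, and H2-Eb1 was at 61.2, 75.2 and 220.1 FPKM and 57.6, 78.6 and 193 FPKM, highest in library 3 of each. Lymphoid and granulocyte genes had none of 11 outside the overlap, or 0 and 1, and a median of -0.23, or -0.41, with Igkc at 70.9, 85.8 and 159 FPKM and 127, 178 and 300.2 FPKM. Perivenous genes under Wnt had 1 above and 3 below of 24, or 2 and 4, with a median of -0.51, or -0.90. Periportal genes had 0 above and 1 below of 27, or 0 and 1, with a median of -0.30, or -0.68. Fatty acid oxidation genes had 2 above and 2 below of 39, or 0 and 3, with a median of -0.19, or -0.57. Glutathione transferases had 0 above and 1 below of 23, or 0 and 1, with a median of -0.15, or -0.54. Glucuronosyl and sulphotransferases had 1 above and 2 below of 22, or 1 and 2, with a median of -0.22, or -0.53. Regulators of p53 had 2 above and 0 below of 13, or 2 and 1, with a median of 0.30, or 0.05. Those above with the main scaling were Mdm2 and Ep300, the latter at 3.48, 2.93 and 2.14 FPKM and 1.18, 1.09 and 2.12 FPKM. Genes known as male-biased in liver had a median of -1.02, or -1.37, over 13 and those known as female-biased -0.68, or -1.04, over 13, so both were negative, and the female-biased Cyp2a4 ranged from 16.3 to 1196 FPKM within the double mutant.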
